A study of Homo sapiens with 4 samples.

Results

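The Hippo pathway restrains tissue growth through the transcriptional coactivators YAP and TAZ. When the pathway is active, the kinases MST1 and MST2 with their scaffold SAV1 activate LATS1 and LATS2, which with MOB1 phosphorylate YAP and TAZ and hold them in the cytoplasm. When it is inactive, YAP and TAZ enter the nucleus, bind the TEAD factors and drive genes such as CCN1, CCN2 and ANKRD1. MDA-MB-231 cells, a triple-negative breast cancer line, are known for high YAP and TAZ activity and carry a truncating mutation in NF2, an upstream activator of the LATS kinases.

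The module described here holds 31 genes of this pathway, chosen by name with earlier results of these data known. All 31 were found among the 43714 gene identifiers counted. They were split by role into 17 pathway components, 5 feedback genes (pathway regulators that YAP and TAZ also induce) and 9 targets without a core role in the pathway.

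Every cell studied was MDA-MB-231 with a stably transfected 7TGP reporter, whose 7 TCF sites drive EGFP, so that fluorescence reports Wnt/beta-catenin transcription. The transfected cells were selected with 3 ug/mL puromycin and sorted over 8 rounds into a reporter-negative line, above 95% EGFP-negative, and a reporter-positive line, above 80% EGFP-positive, called the negative and the positive line in what follows. Both were grown in DMEM with 10% serum. RNA sequencing gave 2 libraries per line, 4 in all. The comparison thus asks how the Hippo genes differ between the reporter-positive and the reporter-negative line.

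Gene counts totalled 55894092 to 63034563 per library. The Wnt feedback gene AXIN2 was at 11.1 and 11.8 CPM (counts scaled for library size and composition) in the negative line and at 19.0 and 18.1 CPM in the positive line. Markers of mesenchymal and of epithelial cells were also read. The mesenchymal marker VIM lay between 1256.8 and 2714.3 CPM and the E-cadherin gene CDH1 at or below 0.859 CPM in every library. But the mesenchymal marker SPARC was at or below 1.13 CPM and the keratin gene KRT19 at 291 to 456 CPM. The 7 mesenchymal markers summed to 4631.0 and 4726.3 CPM in the negative line and 3159.4 and 3416.7 CPM in the positive line, and the 9 epithelial and luminal markers to 775 and 815 against 560 and 607 CPM. Most of the mesenchymal difference was VIM, which fell from 2669.6 to 1299.7 CPM on average. CAV1 fell too, CD44 rose by 0.23 on the log2 scale (edgeR, adjusted p = 0.0373), and AXL, FN1, ZEB1 and SPARC did not pass. Of the epithelial markers KRT8, KRT18 and KRT19 fell and the other 6 did not pass. The spans of KRT8 and KRT18 overlap, so some reads may be counted at both. None of the 7 and 3 of the 9 markers were below 1 CPM in every library. Their part in the results below was not tested. Whether both libraries of a line were grown as separate cultures is not in the labels, so a p-value here reflects the spread of these libraries alone, possibly a technical one. With 1 sorted line per reporter state, reporter activity and whatever else sets these lines apart cannot be told apart.

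TEAD factors recognise the letters CATTCC, which on the other strand of the DNA are read as GGAATG. The 250 bases before the RefSeq gene start (GRCh38.p14) could be read for 24 of the 31 genes. Only 1 start was read per gene. For genes such as VGLL4 and WWTR1 these bases lay inside the gene's span in GENCODE release 29, so the start of that span was not covered. No promoter was read for CCN1, TEAD1, TEAD4, STK3, CRIM1, ARHGEF17 and DOCK5. Of the 24 read, 4 held these letters on either strand, against 11.9% of 27305 promoters of the same length. The 30-base windows around each match are shown because ANKRD1, which rose, and CCN2, which did not pass the test, both hold matches. Each is named by its gene and the number of bases from the first base of the match to the gene start, is written on the gene's strand, and has its own match in capitals. The windows CCN2 104 and CCN2 95 overlap, and each also shows the match of the other in lower case.
ANKRD1 220: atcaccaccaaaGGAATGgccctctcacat
ANKRD1 128: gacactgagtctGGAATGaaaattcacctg
CCN2 169: ttttcagacggaGGAATGctgagtgtcaag
CCN2 104: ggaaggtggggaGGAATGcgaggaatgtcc
CCN2 95: ggaggaatgcgaGGAATGtccctgtttgtg
YAP1 162: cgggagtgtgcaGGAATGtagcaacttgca
PTPN14 200: cctcccgggccgCATTCCtccccgcccccg
The ANKRD1 windows lie at chr10:90921290-90921319 and chr10:90921198-90921227 and those of CCN2 at chr6:131951524-131951553, chr6:131951459-131951488 and chr6:131951450-131951479, all on the reverse strand. The YAP1 window is at chr11:102110273-102110302 on the forward strand and that of PTPN14 at chr1:214551785-214551814 on the reverse strand. The match nearest the ANKRD1 start falls inside an exon of ANKRD1 as GENCODE release 29 draws it, and the other matches lie in no exon of their gene. None of the 24 promoters held the TCF letters CTTTGAT on either strand, which 2.28% of all promoters hold. These matches describe letters only.

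In the reporter-positive line, 10 of the 31 genes rose and 5 fell, while 16 did not pass (edgeR's quasi-likelihood test, Benjamini-Hochberg adjusted p under 0.05). The largest rises were those of WWC1, 2.61-fold, ANKRD1, 2.03-fold, AJUBA, 1.81-fold, and CCN1, 1.64-fold, and the largest fall was that of VGLL4, by 0.57 on the log2 scale. Of all 30952 genes tested, 22.4% were called, 11.6% higher and 10.9% lower. Most members were well counted, with a mean of at least 10 CPM for 30 of the 31. Among genes at that level 34.6% were called, 17.5% higher and 17.1% lower. The median log2 fold change was 0.05 over the components, 0.23 over the feedback genes and 0.09 over the targets, beside 0.00 over all genes.

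By role, of the 17 components 4 rose, 5 fell and 8 did not pass. Of the 5 feedback genes 3 rose and none fell, and of the 9 targets 3 rose and none fell. Libraries of the lines did not overlap for 25 of the 31 genes, a separation seen for 57.7% of all tested genes. That share includes poorly counted genes and was not computed for genes with a mean of at least 10 CPM, as 30 of the 31 have. With scaling to total counts 6 of the 31 rose and 8 fell, and the higher share of all calls across genes went from 51.5% to 36.0%. That scaling lowered the median of all genes by 0.08 on the log2 scale. It ended the calls of MOB1B, NF2, AMOTL2 and FJX1 (adjusted p between 0.0563 and 0.214).

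**Figure D1:**
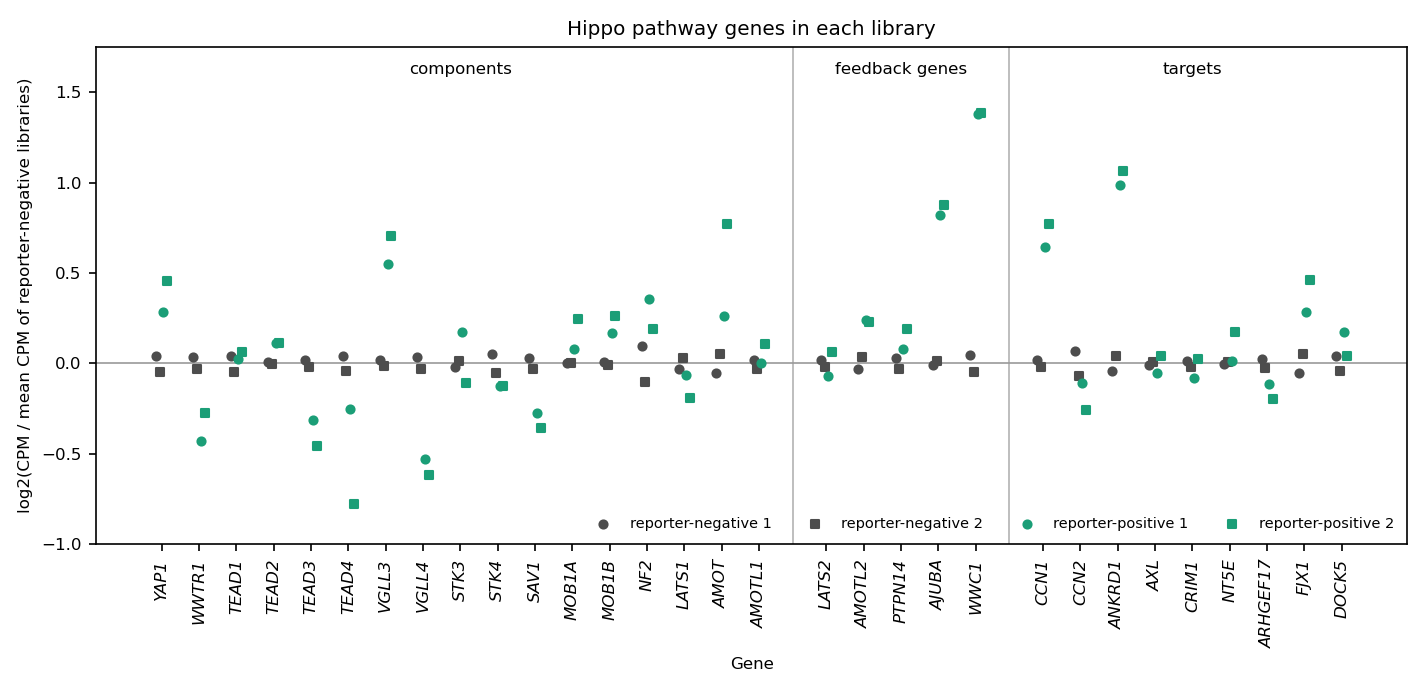
Level of each of the 31 genes in each library, as log2 of its CPM over the mean CPM of the reporter-negative libraries (vertical axis), by gene and role (horizontal axis). Circles and squares are library 1 and library 2 of a line; WWC1, ANKRD1 and AJUBA stand highest in the positive line, and TEAD4 and VGLL4 lowest.

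The effector genes moved in opposite directions. YAP1 (ENSG00000137693, chromosome 11, 102110461 to 102233423 on GRCh38), which encodes the coactivator YAP, was at 152 and 143 CPM in the negative line and 180 and 203 CPM in the positive line. Both reporter-positive libraries lay above both reporter-negative ones. YAP1 rose 1.30-fold, a log2 fold change of 0.38 ± 0.08 (SE; edgeR, adjusted p = 0.00116). WWTR1 (ENSG00000018408, chromosome 3, 149517235 to 149736714), the gene of its paralogue TAZ, was at 155 and 148 CPM in the negative line and 112 and 125 CPM in the positive line. Here both reporter-positive libraries were the lower ones. WWTR1 fell by 0.36 ± 0.08 on the log2 scale (SE; edgeR, adjusted p = 0.00148).

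A ratio of counts within a library does not depend on how libraries are scaled. YAP1 had 0.976 and 0.972 times the counts of WWTR1 in the negative line and 1.61 and 1.63 times in the positive line, a 1.66-fold higher ratio. Since counts depend on gene length, the ratio compares libraries and does not rank the genes. The call of YAP1 was lost without negative-line library 2 (adjusted p = 0.109 by the same test), and that of WWTR1 without the one numbered 1 (adjusted p = 0.105). Reads of ENSG00000254422, an antisense gene inside YAP1 with 23.2% of its counts, were counted at YAP1 too. With the counts of genes inside them taken out, YAP1 still rose and WWTR1 still fell, with log2 fold changes of 0.38 and -0.35.

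TEAD genes encode the DNA-binding partners of YAP and TAZ. TEAD3 (ENSG00000007866, chromosome 6, 35473597 to 35497076) was at 49.1 and 47.7 CPM in the negative line and 38.9 and 35.2 CPM in the positive line. TEAD4 (ENSG00000197905, chromosome 12, 2959330 to 3040673) was at 14.6 and 13.8 against 11.9 and 8.28 CPM. In both genes the reporter-positive libraries were the lower ones, and for TEAD4 they lay far apart. TEAD3 fell by 0.38 (standard error 0.08; edgeR, adjusted p = 6.82e-04) and TEAD4 fell by 0.49 on the log2 scale (standard error 0.14; adjusted p = 0.0221). Without positive-line library 2, TEAD4 had a log2 fold change of -0.26, and without positive-line library 1 one of -0.77.

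TEAD1 and TEAD2 did not pass. TEAD1 was at 181 and 170 CPM in the negative line and 179 and 184 CPM in the positive line, which overlapped. Its log2 fold change was 0.05, with a 95% interval of -0.11 to 0.20. TEAD2 was at 27.9 and 27.7 against 30.1 and 30.1 CPM, with an interval of -0.04 to 0.27, but its span overlaps CD37 on the opposite strand, which had 59.3% of its counts. Of all counts at the 4 TEAD genes, TEAD1 took 66.4% and 65.7% in the negative line and 68.9% and 71.5% in the positive line. These shares depend on gene length too, so they compare libraries and do not rank the TEAD genes.

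Vestigial-like proteins bind TEAD factors in place of YAP and TAZ. VGLL4, which represses TEAD activity, and VGLL3, a TEAD coactivator, moved apart. VGLL4 (ENSG00000144560, chromosome 3, 11556070 to 11771350) was at 75.1 and 71.7 CPM in the negative line and 50.9 and 47.9 CPM in the positive line. It fell by 0.57 ± 0.07 on the log2 scale (SE; edgeR, adjusted p = 4.70e-06). ATG7 overlaps the end of VGLL4 over 0.741% of its span and had 107% of its counts, and ATG7 fell too, by 0.26 on the log2 scale (adjusted p = 0.0166 by the same test). The part of genes that share a stretch with a member, here and below, was not tested. VGLL3 (ENSG00000206538, chromosome 3, 86876388 to 86991119) was at 9.07 and 8.86 CPM in the negative line and 13.1 and 14.6 CPM in the positive line. It rose 1.54-fold, a log2 fold change of 0.62 ± 0.10 (SE; edgeR, adjusted p = 7.57e-05). None of the 12 alternative fits lost either call. The count ratio of VGLL3 to VGLL4 was 0.121 and 0.123 in the negative line and 0.258 and 0.304 in the positive line, 2.29-fold higher.

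**Figure D2:**
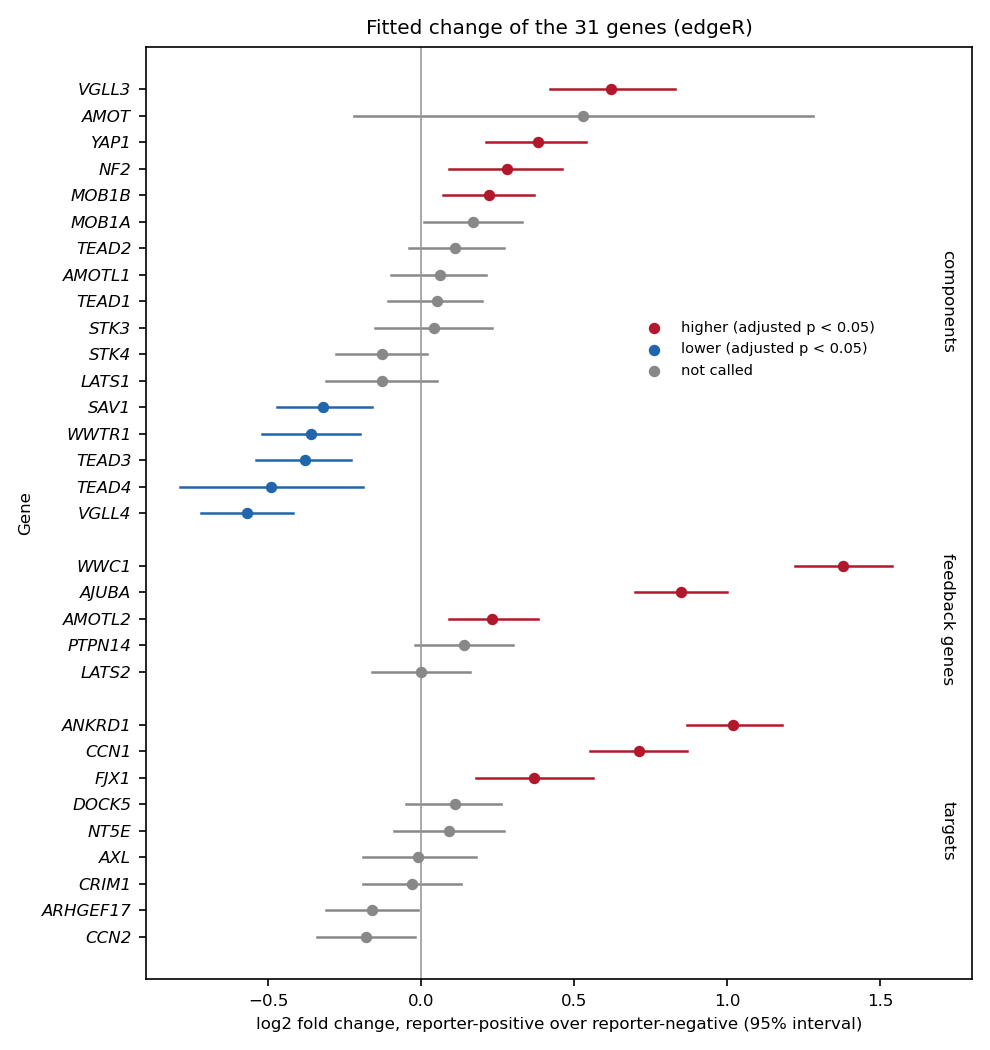
Fitted log2 fold change of each of the 31 genes, reporter-positive over reporter-negative (horizontal axis), with its 95% interval as a line, by gene and role (vertical axis). Red and blue mark genes called higher and lower; components lie on both sides of 0, while the called feedback genes and targets are all higher.

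Of the kinase cassette, the scaffold gene SAV1 fell and the cofactor gene MOB1B rose, while the kinase genes STK3, STK4 and LATS1 did not pass. STK3, the gene of MST2, was at 22.0 and 22.5 CPM in the negative line and 25.1 and 20.7 CPM in the positive line, which overlapped. STK4, the gene of MST1, was at 77.9 and 72.4 against 68.8 and 68.8 CPM and did not pass (edgeR, adjusted p = 0.239). The 95% interval of its log2 fold change was -0.28 to 0.02. With scaling to total counts STK4 was called lower, with a log2 fold change of -0.21 (adjusted p = 0.0467 by the same test). SAV1 (ENSG00000151748, chromosome 14, 50632058 to 50668331), the scaffold of these kinases, was at 39.8 and 38.2 CPM in the negative line and 32.2 and 30.4 CPM in the positive line. It fell by 0.32 ± 0.07 on the log2 scale (SE; edgeR, adjusted p = 0.00361). That call was lost without negative-line library 1 (adjusted p = 0.108). ATL1, which overlaps SAV1 over 2.79% of its span, had 36.8% of its counts and a log2 fold change of -0.25.

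LATS1, a kinase that phosphorylates YAP and TAZ directly, was at 17.9 and 18.7 CPM in the negative line and 17.5 and 16.0 CPM in the positive line. Its log2 fold change of -0.13 had a 95% interval of -0.31 to 0.05. The LATS cofactor genes had higher values in both reporter-positive libraries. MOB1A was at 139 and 139 against 147 and 165 CPM and did not pass (edgeR, adjusted p = 0.132). MOB1B was at 53.4 and 52.7 against 59.6 and 63.7 CPM and rose 1.16-fold (adjusted p = 0.0332 by the same test), a call lost without negative-line library 1 or 2 or positive-line library 2 (adjusted p up to 0.318). DCK overlaps MOB1B on the same strand, with 35.7% of its counts, and was higher as well, at 22.6 against 18.5 CPM on average.

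NF2, which encodes the tumour suppressor merlin, was at 21.8 and 19.0 CPM in the negative line and 26.1 and 23.3 CPM in the positive line. It rose 1.21-fold (standard error 0.09 on the log2 scale; edgeR, adjusted p = 0.0288). DESeq2 did not call NF2, nor did the fits without negative-line library 2 or positive-line library 1 (adjusted p up to 0.428). The counts do not show which allele the RNA came from.

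Angiomotins hold YAP and TAZ at junctions and at the actin cytoskeleton. AMOT was close to silent, with 26 and 27 counts in the negative line and 32 and 38 in the positive line, or 0.409 to 0.725 CPM. At that depth its log2 fold change had a 95% interval of -0.22 to 1.28. AMOTL1 was at 142 and 137 CPM in the negative line and 140 and 151 CPM in the positive line, which overlapped, with an interval of -0.10 to 0.21. ENSG00000256469, an antisense gene at AMOTL1, had 22.5% of its counts.

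Among the feedback genes, WWC1 showed the largest change of the module. WWC1 (ENSG00000113645, chromosome 5, 168291651 to 168472303) encodes KIBRA, a scaffold that activates the LATS kinases. It was at 19.2 and 18.0 CPM in the negative line and 48.4 and 48.6 CPM in the positive line. The lines were far apart and the libraries of a line close together. WWC1 had a log2 fold change of 1.38 ± 0.08 (SE; edgeR, adjusted p = 2.84e-11) and of 1.30 to 1.44 over the alternative fits. Its paralogues WWC2 and WWC3 did not pass, with log2 fold changes of 0.05 and -0.01.

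AJUBA (ENSG00000129474, chromosome 14, 22971174 to 22982642), a LIM protein that inhibits the LATS kinases, was at 79.9 and 81.2 CPM in the negative line and 142 and 148 CPM in the positive line. It rose by 0.85 ± 0.07 on the log2 scale (SE; edgeR, adjusted p = 1.96e-08). ENSG00000259132, a protein-coding gene model on the same strand, covers 96.7% of its span and went from 104 to 173 CPM, so the reads of these genes cannot be told apart. WWC1 and AJUBA act on LATS in opposite senses, and the counts at both genes rose, those at AJUBA being shared with ENSG00000259132. The other LIM proteins of this kind did not pass, with log2 fold changes of -0.06 for LIMD1 and -0.25 for WTIP.

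AMOTL2, an angiomotin that YAP induces, was at 68.4 and 71.5 CPM in the negative line and 82.4 and 82.0 CPM in the positive line. It rose 1.18-fold (edgeR, adjusted p = 0.0205), a call lost when either negative-line library was left out (adjusted p up to 0.351). LATS2 was at 31 and 30.2 against 29.2 and 32 CPM, which overlapped, with a log2 fold change between -0.16 and 0.16 (95% interval). PTPN14, a phosphatase that binds YAP, was at 275 and 263 against 284 and 307 CPM and did not pass (edgeR, adjusted p = 0.240). ENSG00000228470, a noncoding gene over 4.38% of the PTPN14 span, had 53.4% of its counts.

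Of the targets, ANKRD1, CCN1 and FJX1 rose, and CCN2, AXL, CRIM1, NT5E, ARHGEF17 and DOCK5 did not pass. ANKRD1 (ENSG00000148677, chromosome 10, 90912096 to 90921276), which encodes a nuclear ankyrin repeat protein, was at 97.1 and 103 CPM in the negative line and 198 and 209 CPM in the positive line. Its log2 fold change was 1.02 ± 0.07 (SE; edgeR, adjusted p = 2.16e-09). CCN1 (ENSG00000142871, chromosome 1, 85580761 to 85583962), the gene of the matricellular protein CYR61, was at 232 and 226 CPM in the negative line and 358 and 391 CPM in the positive line. It rose by 0.71 ± 0.08 on the log2 scale (SE; edgeR, adjusted p = 8.36e-07). FJX1 (ENSG00000179431, chromosome 11, 35618419 to 35620868), a homologue of the fly gene four-jointed, was at 13.4 and 14.4 against 16.9 and 19.1 CPM. It rose 1.29-fold (edgeR, adjusted p = 0.00493), a call lost without negative-line library 1 (adjusted p = 0.0913).

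CCN2 (ENSG00000118523, chromosome 6, 131948176 to 131951373), the gene of connective tissue growth factor and the closest relative of CCN1 among the members, did not follow it. CCN2 was at 104 and 94.6 CPM in the negative line and 92.0 and 82.9 CPM in the positive line. Its log2 fold change was -0.18 with a 95% interval of -0.34 to -0.02, and it did not pass (edgeR, adjusted p = 0.104). It was called lower without positive-line library 1 (adjusted p = 2.73e-04) and with scaling to total counts (adjusted p = 0.0394), and over all alternatives the log2 fold change lay between -0.26 and -0.11. The interval excludes a rise of the size of CCN1. Within a library, ANKRD1 had 0.935 and 1.09 times the counts of CCN2 in the negative line and 2.15 and 2.53 times in the positive line. The count ratio of CCN1 to CCN2 was 2.23 and 2.39 against 3.89 and 4.72. The CCN2 and ANKRD1 promoters shown above both hold the TEAD letters, and CCN2 holds more matches, 3 against 2.

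**Figure D3:**
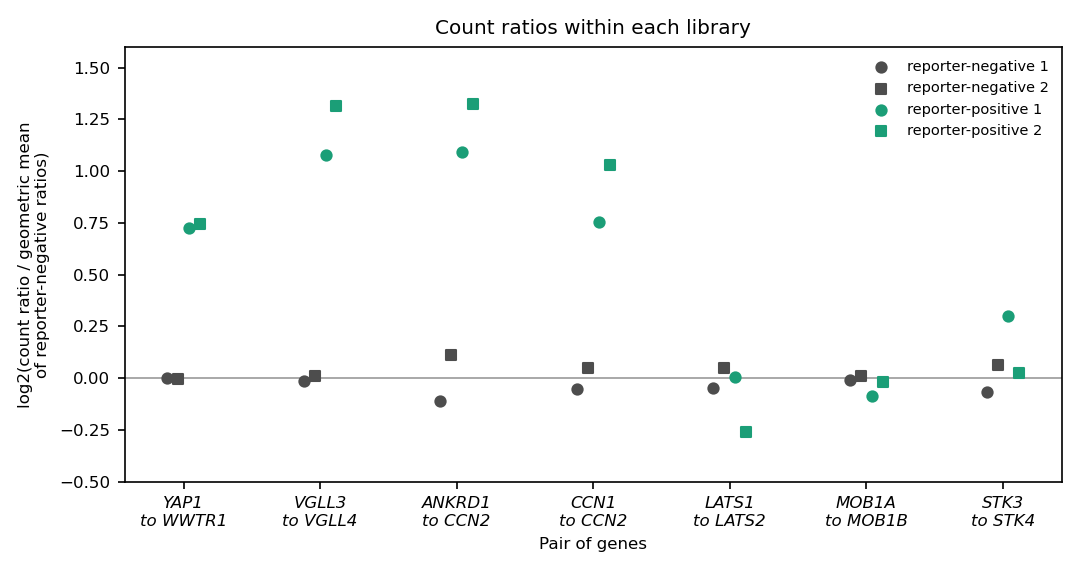
Ratio of the counts of a pair of genes in each library, as log2 of the ratio over the geometric mean of the reporter-negative ratios (vertical axis), for 7 pairs (horizontal axis). The reporter-positive libraries lie above the reporter-negative ones for YAP1 to WWTR1, VGLL3 to VGLL4, ANKRD1 to CCN2 and CCN1 to CCN2.

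In the kinase cassette, the count ratios of LATS1 to LATS2 and of STK3 to STK4 overlapped between the lines, and that of MOB1A to MOB1B was 2.60 and 2.64 against 2.47 and 2.59. With 2 libraries per line, an exact two-sided permutation test of a ratio has 6 arrangements and cannot go below p = 0.333, the value of 5 of the 7 ratios (0.466 adjusted over the 7).

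The surface receptor tyrosine kinase gene AXL was at 794 and 803 CPM in the negative line and 768 and 822 CPM in the positive line, which overlapped. Its log2 fold change had a 95% interval of -0.19 to 0.18. CRIM1, a transmembrane BMP-binding protein gene, was at 325 and 318 against 304 and 327 CPM, with an interval of -0.19 to 0.13, and FEZ2 on the opposite strand had 66.4% of its counts. The ecto-nucleotidase gene NT5E, which encodes CD73, was at 521 and 525 against 527 and 589 CPM, with an interval of -0.09 to 0.27. The guanine nucleotide exchange factor genes ARHGEF17 and DOCK5 did not pass either. ARHGEF17 was at 67.9 and 65.7 against 61.6 and 58.3 CPM, with an interval of -0.31 to -0.01, and was called lower without positive-line library 1 (adjusted p = 0.0161) and with scaling to total counts (adjusted p = 0.0370). DOCK5 was at 87.1 and 82.1 against 95.3 and 87.1 CPM, with an interval of -0.05 to 0.26. MOB1A, PTPN14 and NT5E were called higher without positive-line library 1 (adjusted p = 5.52e-05, 0.00226 and 0.0171), and DOCK5 without the one numbered 2 (adjusted p = 0.0352).

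Each member was also set beside the tested protein-coding genes starting within 5 Mb. Of all tested protein-coding genes, 14.7% were called higher and 14.8% lower. Near YAP1, 17 of 29 neighbours rose and 1 fell, with a median log2 fold change of 0.54 beside 0.38 for YAP1 itself. Near VGLL4, 44 of 81 fell (median -0.29), and near TEAD3, 65 of 198 fell (median -0.18), so these falls had the direction of their surroundings. Near STK4, 40 of 85 fell (median -0.34). Near MOB1B, which rose by 0.22 on the log2 scale, 15 of 48 rose and 2 fell (median 0.19). The part of the neighbourhood in the levels of these genes was not tested.

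Other members differed from their surroundings in direction or in size. Near WWTR1, which fell, 13 of 39 neighbours rose and 1 fell (median 0.28), and near SAV1, which fell, 16 of 52 rose and 3 fell (median 0.15). The medians near WWC1, AJUBA, ANKRD1 and CCN1 were 0.09, -0.01, 0.05 and 0.18, well under the rises of these genes. Of the neighbours of CCN1, 12 of 42 rose and 4 fell, so its rise shared their direction. Near WWC1 5 of 29 rose and 0 fell, near AJUBA 10 of 104 rose and 4 fell, and near ANKRD1 12 of 72 rose and 10 fell.

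**Figure D4:**
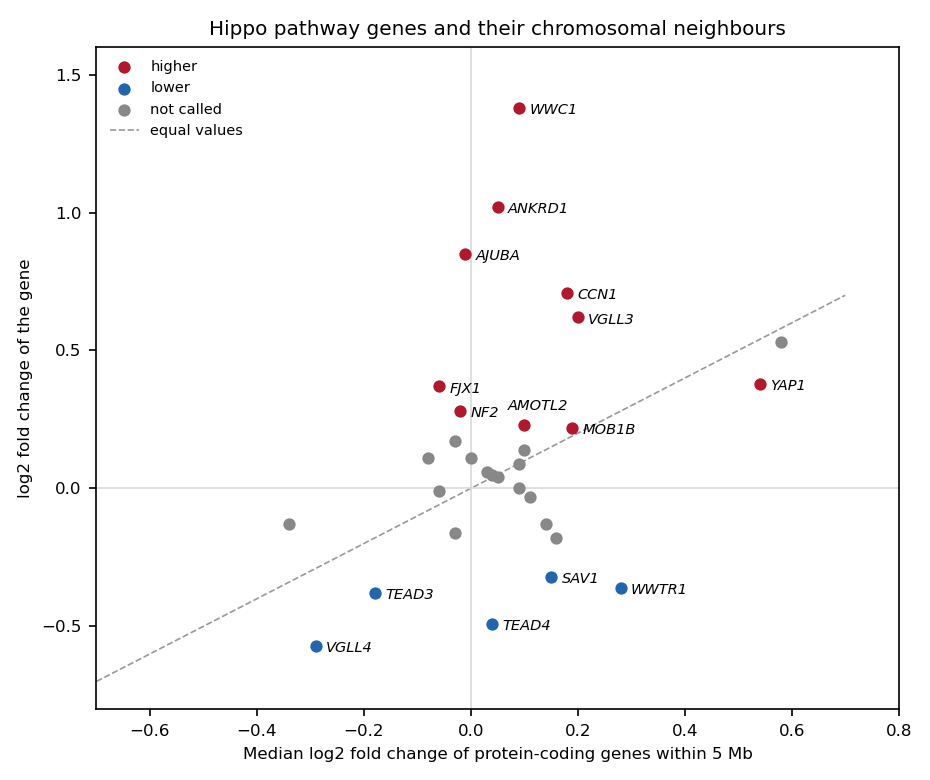
Log2 fold change of each of the 31 genes (vertical axis) against the median log2 fold change of the tested protein-coding genes starting within 5 Mb (horizontal axis), coloured by call; the dashed line marks equal values. YAP1 and VGLL4 share the sign of their neighbours' medians of 0.54 and -0.29, while WWTR1 lies below 0 beside a median of 0.28.

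Beyond the module, 32 further YAP/TAZ targets and 50 further pathway components were listed. Genes that share a stretch with these were not looked for. Of the 32 targets, all tested, 16 rose, 7 fell and 9 did not pass, and their median log2 fold change was 0.29. That is 50.0% higher and 21.9% lower, beside 11.6% and 10.9% of all genes and 17.5% and 17.1% of genes with a mean of at least 10 CPM, so the lower share was near that of well-counted genes. With scaling to total counts 15 rose and 9 fell. Because the list was chosen with earlier results of these data known, its shares describe these genes and test nothing. SLIT2, which encodes a secreted guidance ligand, was at 38.6 and 36.6 CPM in the negative line and 107 and 107 CPM in the positive line and rose 2.84-fold (edgeR, adjusted p = 3.05e-12). The RNA-binding protein gene BICC1 rose 2.40-fold, from 20.2 to 48.5 CPM, and the clotting initiator gene F3 rose 2.30-fold. THBS1, the gene of the matrix protein thrombospondin 1, rose 1.97-fold to 1419.9 CPM.

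Of the targets that fell, TNS1, a focal adhesion gene, fell by 1.49 on the log2 scale from 2.46 to 0.869 CPM. The RhoGAP gene DLC1 fell by 0.34, the caveolar gene CAVIN2 fell by 0.32 and the myelin protein gene PMP22 fell by 0.31 on the log2 scale. The calls of CAVIN2 and PMP22 were lost without negative-line library 2 (adjusted p up to 0.109), and that of PMP22 also without the one numbered 1.

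**Figure D5:**
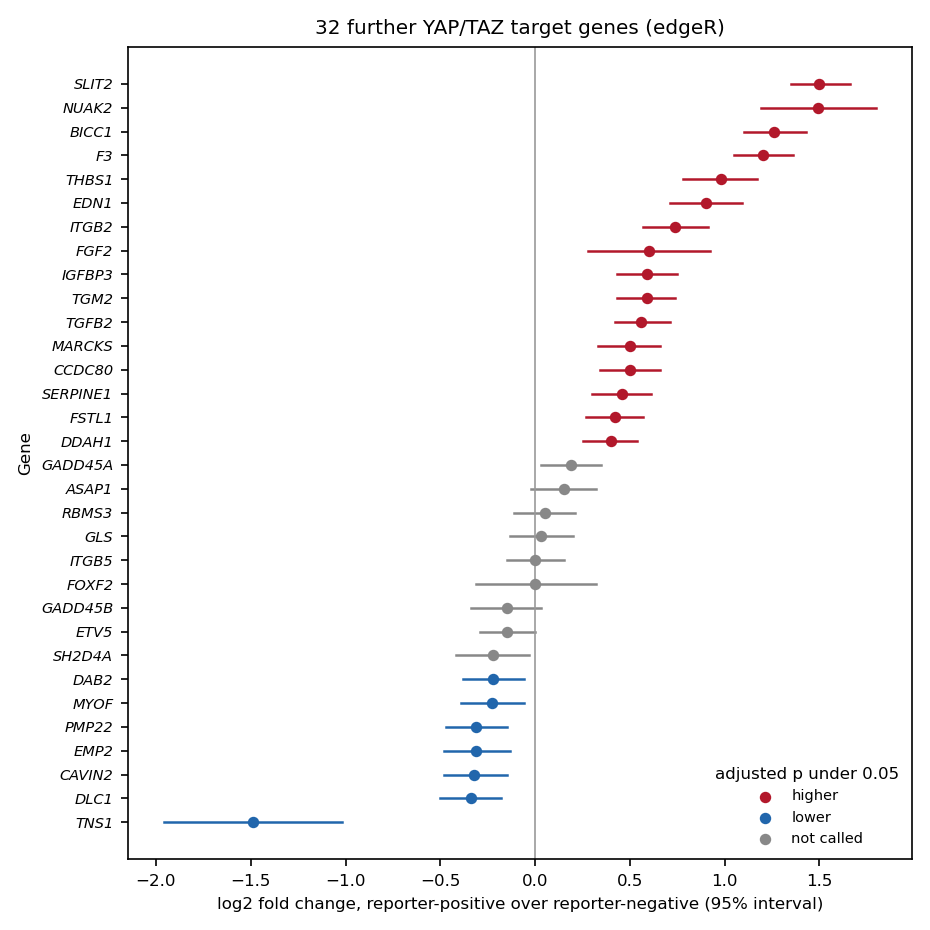
Fitted log2 fold change of the 32 further YAP/TAZ targets, reporter-positive over reporter-negative (horizontal axis), with its 95% interval as a line, by gene (vertical axis). Red marks the 16 genes called higher, blue the 7 called lower and grey the 9 not called.

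Of the 50 further components 47 were counted highly enough to test, and 5 rose, 7 fell and 35 did not pass, with a median log2 fold change of -0.01. The shares were 10.6% higher and 14.9% lower, near the 11.6% and 10.9% of all genes. Among genes with a mean of at least 10 CPM they were 17.5% and 17.1%, so the higher share here was below that level. The genes named next thus describe single members and not the list. The polarity gene LLGL1 rose 1.46-fold, in a stretch of chromosome 17 where 61 of 85 neighbours rose (median 0.57). FRMD6, a FERM-domain gene upstream of the pathway, rose 1.33-fold from 267 to 354 CPM, a call lost without negative-line library 2 (edgeR, adjusted p = 0.0767). Of the 6 listed genes of the Ras-association domain family, RASSF5 rose 1.37-fold and RASSF8 rose 1.32-fold, while RASSF2 fell by 1.17 and RASSF4 fell by 0.46 on the log2 scale. RASSF1 and RASSF6 did not pass, with log2 fold changes of 0.14 and 0.71 (adjusted p = 0.249 and 0.142). RASSF2 was at 6.83 and 6.25 CPM in the negative line and 2.99 and 2.82 CPM in the positive line. The kinase gene MAP4K2 fell by 0.46 on the log2 scale, a call lost without negative-line library 1 (adjusted p = 0.0695). The genes below the count filter were CRB3, VGLL1 and VGLL2, each with at most 13 counts in a library.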

How the data were processed

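The authors deposited raw counts of reads for each Ensembl gene ID in 1 table, whose columns were matched to samples by title. HISAT2, Bowtie2, DESeq2 and the build hg19 are named, without roles or versions, per the submitters' processing notes; for the counter, the annotation and strandedness, the tool and setting were not given in the sources used here. In GENCODE release 29 (GRCh38), whose positions are printed, all 43714 IDs were found. For all 1235 genes of at least 100 counts lying inside another gene on its strand without a shared exon, and all 1844 on the opposite strand, the host's count was at least as high in all 4 libraries. Counts thus cover whole gene spans on both strands, and overlapping genes with at least 20% of a member's counts are named. CPM values are not scaled for length and were not compared between genes.

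Tests used edgeR 4.0.16 in R 4.3.3 on all genes: TMM scaling, filterByExpr (minimum count 10, minimum total 15), a robust quasi-likelihood fit on line alone, and p-values adjusted by Benjamini-Hochberg over 30952 genes (threshold 0.05). Standard errors are the log2 fold change over the root of its F statistic, and 95% intervals use the matching t distribution. The test was tried on simulated counts first. Alternatives were RLE and total count scaling, other count filters, DESeq2 1.42.0, limma-voom (limma 3.58.1), a replicate block, leaving out each library and, added after the data were seen, subtracting counts of genes inside a member. No library was a copy of another: chi-square over its degrees of freedom was 36.7 between the negative-line and 18.9 between the positive-line libraries. All 31 members were named, and of the wider lists up to 4 called genes per direction with the smallest adjusted p, of which 1 is not reported here; paralogues of members, RASSF1, RASSF6 and genes too low to test were picked once values were known. Members and lists were chosen with earlier results of these data known, and the library counts give small counting error except for genes such as AMOT.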

Additional observations from a re-analysis of the deposited data

How the results depend on the processing

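All 15 called genes of the module kept their direction in the 12 alternative fits, and 8 were called in each of them. Of the 16 not called, 9 were called in none. Scaling to total counts left 2 components higher and 6 lower, called 2 targets lower and called 2270 of all genes higher. Leaving out 1 library at a time gave 1 to 4 components higher, 3 to 5 lower, 0 to 2 targets lower, 3 to 10 further components lower, 3 to 9 further targets lower, and 2333 to 4704 of all genes higher and 2025 to 4457 lower. The lowest count of components higher came without the reporter-negative library numbered 2, and that of components lower without the one numbered 1. A lone library in a line is assumed there to vary like the other line's. Sign changes were seen among genes that did not pass. With total count scaling, the log2 fold changes of TEAD1, STK3 and AMOTL1 were -0.04, -0.04 and -0.03. With RLE scaling and with DESeq2, those of LATS2 and AXL were 0.01 and 0.00. Without the reporter-positive library numbered 1, STK3 was at -0.10, LATS2 at 0.07, AXL at 0.04, CRIM1 at 0.03, AMOTL1 at 0.11 and EPCAM at 0.01; without the one numbered 2 they were at 0.17, -0.08, -0.06, -0.09, -0.01 and -0.06. Without the reporter-negative library numbered 1, LATS2 was at 0.02, CDH1 at -0.07 and EPCAM at 0.01, and CDH1 was at 0.91 without the one numbered 2. The cause was not tested. Equal library numbers did not pair the samples (correlation of deviations 0.0276 over 24583 genes); with a replicate block the components had 4 higher and 5 lower, no call among the 31 genes changed, and 4175 of all genes were higher and 4051 lower. Depth limits AMOT, with at most 38 counts in a library.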
